A study of Homo sapiens with 9 samples.

Results

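Collagens, laminins and integrins form the matrix under an epithelium and the receptors that hold cells to it, and their transcripts were followed here in MDA-MB-468 cells depleted of BBOX1. The members were all entries of the deposited table whose symbol is that of a collagen chain, a laminin chain or an integrin alpha or beta subunit, 82 of 27315 entries. They are 44 collagen, 12 laminin, 18 integrin alpha and 8 integrin beta genes. MDA-MB-468 is a human cell line from a triple-negative breast tumour, and BBOX1 is the dioxygenase that completes carnitine synthesis. The 9 libraries of polyadenylated RNA comprise 3 with the BBOX1 hairpin sh6, 3 with the BBOX1 hairpin sh1 and 3 with a scrambled control hairpin. All hairpins were delivered by lentivirus, followed by selection with puromycin. The cells are 1 line, the protocol spells out target sequences for hairpins called sh1 and sh2 but none for sh6, and the labels do not state whether replicate libraries are separate cultures. The p values therefore measure library-to-library spread only, and that spread may be technical.

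As background, collagens are trimers of alpha chains, of which the fibrillar types build fibres and type IV builds the sheet of the basement membrane. Laminins are trimers of 1 alpha, 1 beta and 1 gamma chain and make the other sheet of that membrane. Integrins are receptors of 1 alpha and 1 beta subunit. Subunit beta 1 serves receptors of collagen and laminin, beta 4 serves a receptor of laminin, the partners of alpha V bind the RGD motif of other matrix proteins and of latent TGF-beta, and beta 2 belongs to leucocyte receptors. In the breast, basal epithelial cells hold to laminin through alpha 6 beta 4 and alpha 3 beta 1.

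Values are normalised counts, recovered from the deposited variance-stabilised values. A fold is the ratio of 2 group means of normalised counts, and a log2 difference is on the deposited scale, which is compressed at low levels, so that it is smaller there than the log2 of the fold. Recovered depths were 15729876 to 19732683 reads per library, and 1 read was worth 0.881 to 1.08 normalised counts. Of 82 members, 9 lay at the floor of the table in all 9 libraries, 28 had reads but a mean less than 1 unit above that floor, the level of 16.2 normalised counts, and 45 were tested among 13165 genes. BBOX1 itself averaged 601 ± 19 in sh6 libraries, 333 ± 11.5 in sh1 libraries and 2616 ± 226 in control libraries (SD, n = 3 each), with no overlap between hairpin and control libraries. Of 12 epithelial and breast line markers, PGR was at 0 and 11 were tested, of which 3 were called higher and 5 lower with sh6, and 3 higher and 2 lower with sh1. These markers showed no common direction with either hairpin, and those named next are not all that were called. EPCAM had means of 7418, 5835 and 6982 in sh6, sh1 and control libraries and was called lower with sh1 (adjusted p = 7.6e-05). Most of the called markers of the list were higher with sh1, so EPCAM does not stand for it. ERBB2 had 602, 753 and 1091 and was called lower with both, whereas KRT5 had 12621, 10797 and 7145 and was called higher with both. KRT14 had 28.6, 83.6 and 44.1 and was called lower with sh6 and higher with sh1. ESR1 had 109, 242 and 227 and was called lower with sh6, and KRT8 had 50275, 42206 and 42986 and was called higher with sh6. Of 12 fibroblast and mural markers outside the collagens, DPT and PDPN were at 0 and DCN, LUM and THY1 averaged at most 1.01 in any group. The summed level of that list ran from 14218 to 16288 with sh6, 9832 to 10269 with sh1 and 12383 to 12829 in controls, nearly all of it FBLN1, at 14651, 9593 and 12272. Of its 6 tested genes, 2 were called higher and 2 lower with sh6, and 1 higher and 2 lower with sh1: TAGLN had 163, 315 and 239 (lower with sh6, higher with sh1), PDGFRA 50.1, 12.3 and 29.2 (higher with sh6, lower with sh1), FBLN1 was called like PDGFRA, and FAP had 35.5, 53.1 and 53.9 (lower with sh6). Of 8 endothelial markers, TIE1, CLDN5 and VWF averaged at most 2.35 in any group, and the sum ran from 125 to 149 with sh6, 120 to 169 with sh1 and 267 to 299 in controls, most of it KDR. Of its 3 tested genes, 0 were called higher and 1 lower with sh6, and 1 higher and 1 lower with sh1. KDR had means of 87, 82.8 and 227 in sh6, sh1 and control libraries (lower with both), and TEK 15.2, 26.4 and 14.6 (higher with sh1). PECAM1, under the level filter and not tested, had 5.6, 6.03 and 24.6. Of 8 markers of the 293T cells that package lentivirus, NEFM and SOX2 were at 0, but the sum ran from 4084 to 4686 with sh6, 2532 to 2838 with sh1 and 1762 to 2019 in controls, nearly all of it TUBB3 and WT1. Of its 3 tested genes, 2 were called higher and 0 lower with sh6, and 3 higher and 0 lower with sh1, with TUBB3 and WT1 called higher with both. The epithelial list also holds the basal factor TP63, which averaged 235 with sh6, 20.4 with sh1 and 18.1 in controls. TP63 was called higher with sh6 (adjusted p = 3.4e-18) but not with sh1, whereas KRT14 of that list was called lower with sh6. The part of these markers in the changes of the members was not tested.

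Chains of the basement membrane were among the larger rises with each hairpin: COL4A1, COL4A2, COL18A1, LAMB1, LAMB3 and LAMC1 with sh6, and COL4A5, LAMA2, LAMB1 and LAMB3 with sh1. Among tested members, the largest rises with sh1 were those of COL5A2 and COL26A1 (log2 differences 1.91 and 1.11). Laminin chains also fell, LAMA4 with both hairpins (-0.73 with sh6 and -0.33 with sh1) and LAMB2 with sh6 (-0.56). ITGA1, ITGAL, COL24A1 and COL9A2 fell with both as well, and ITGB1 rose with sh6 and fell with sh1. Against the control, sh6 gave 22 of 45 members called higher and 9 lower, where 34.2% and 33.6% of all 13165 genes were called. With sh1, 24 of 45 were called higher and 10 lower, where 29% and 30% of all genes were called. In either direction these were 31 of 45 members with sh6 and 34 of 45 with sh1, where 67.8% and 58.9% of all genes were called. A call is an adjusted p under 0.05 in limma. The median difference of the tested members on the deposited log2 scale was 0.207 with sh6 and 0.232 with sh1, where the median over all genes was 0.00576 with sh6 and 0.00095 with sh1. Differences of at least 0.58 on that scale, about 1.5-fold, were called higher in 9 members with sh6 and 7 with sh1, against 8.25% and 5.42% of all genes, and called lower in 6 and 4 members, against 10.5% and 7.26%. With at least that difference, the members higher with sh6 were COL14A1, COL18A1, COL23A1, COL26A1, COL4A1, COL4A2, LAMB1, LAMB3 and LAMC1, and those higher with sh1 were COL26A1, COL4A5, COL5A2, ITGA3, LAMA2, LAMB1 and LAMB3. The members lower with sh6 were COL24A1, COL9A2, ITGA1, ITGAL, ITGB6 and LAMA4, and those lower with sh1 were COL24A1, ITGA1, ITGAL and ITGB1. All 3 sh6 libraries lay above all 3 controls in 23 members and below them in 10, where this held for 34.6% and 33.9% of all genes, and all 3 sh1 libraries lay above the controls in 21 and below them in 10, where this held for 31.7% and 32.4%. Both comparisons use the same 3 control libraries. The filter on the mean lets a member pass through the group where it is high, so these counts describe the members and test nothing about them. COL24A1 with sh6, COL9A3 with sh1, and COL11A2 and COL23A1 in controls had group means under the filter level of 16.2. They passed through their other groups, and their adjusted p values share that limit. In RNA from bulk cells, fewer cells that express a gene and less of its RNA per cell cannot be told apart.

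**Figure D1:**
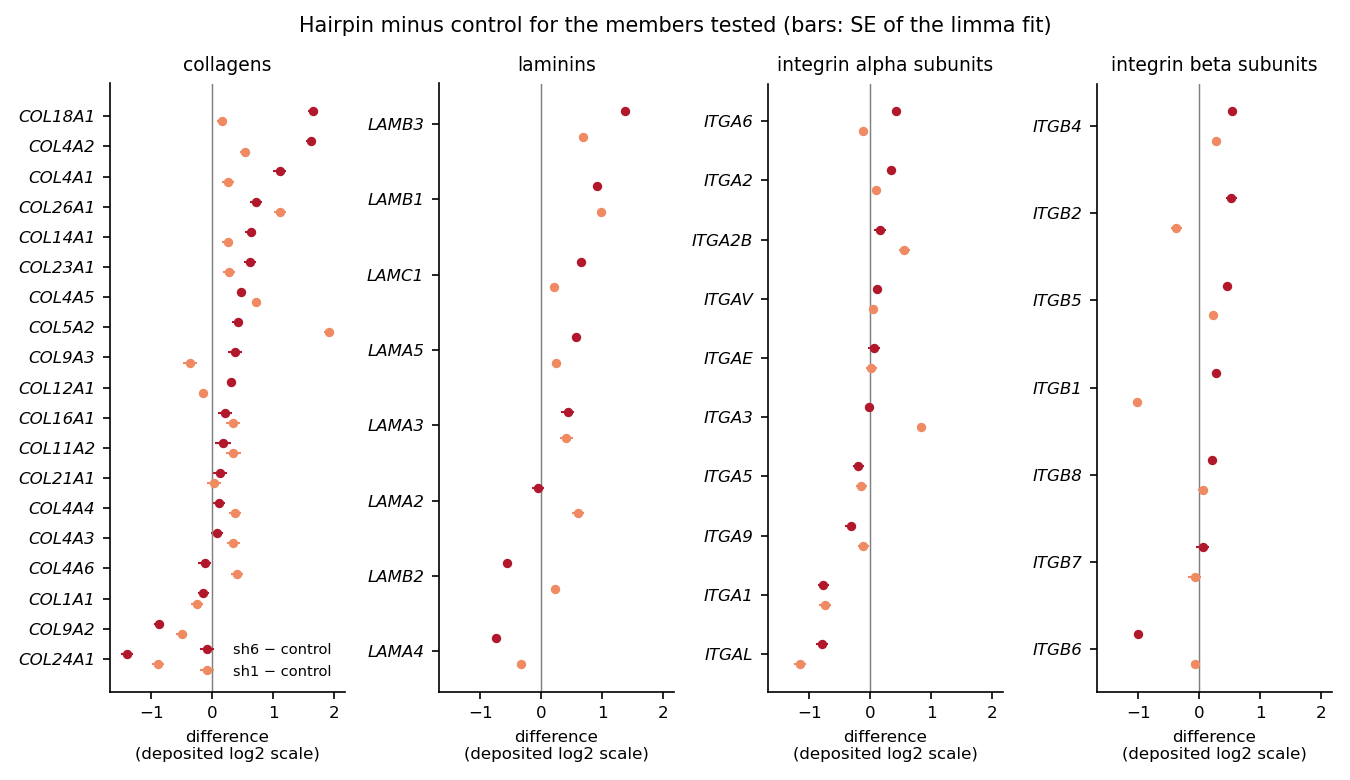
Difference of tested members from the control on the deposited log2 scale (x axis), for sh6 (dark red) and sh1 (orange), with the SE of the limma fit, in 4 panels by family. COL18A1, COL4A2 and LAMB3 lie farthest right with sh6, COL5A2 with sh1, and ITGB1 lies on opposite sides of 0.

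Type IV collagen is the collagen of the basement membrane, and its 6 chain genes stand in 3 head-to-head pairs that share a promoter region. The pairs moved in different ways, and the hairpin with the larger rise was sh6 for COL4A1 and COL4A2 but sh1 for the other pairs. COL4A2 had 607, 586 and 626 normalised counts in the sh6 libraries, 232, 256 and 276 in the sh1 libraries and 161, 149.7 and 165 in the control libraries. All sh6 libraries lay above all sh1 libraries, and these above all controls. COL4A2 rose 3.82-fold with sh6 (log2 difference 1.61, SE 0.0765, adjusted p = 7.5e-18) and 1.6-fold with sh1 (log2 difference 0.53, SE 0.0765, adjusted p = 6e-07). Its partner COL4A1, whose chain joins that of COL4A2 in the widespread trimer, had 134, 128 and 168 normalised counts in the sh6 libraries, 52.6, 56.3 and 62.5 in the sh1 libraries and 52.4, 32.3 and 37.7 in the control libraries. It rose 3.51-fold with sh6 (adjusted p = 6.2e-11), and the groups again did not overlap. The 1.4-fold difference with sh1 (adjusted p = 0.0294) lost its call without sh1 replicate 2, sh1 replicate 3, control replicate 2 or control replicate 3 and under quantile normalisation, and over all alternatives its adjusted p ran from 0.0063 to 0.151.

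The chains of COL4A3 and COL4A4, which are known from specialised membranes such as the glomerulus, were higher with sh1. COL4A3 had 20.5, 17.4 and 24.5 normalised counts in the sh6 libraries, 41, 27.1 and 30.8 in the sh1 libraries and 17.6, 16.4 and 19.4 in the control libraries. COL4A4 had 30.2, 32.9 and 31.9 normalised counts in the sh6 libraries, 35.9, 54.3 and 51.6 in the sh1 libraries and 26.9, 25.6 and 27.3 in the control libraries. For both genes every sh1 library lay above every sh6 library and every control, and they rose 1.86-fold and 1.78-fold with sh1 (adjusted p = 0.00489 and 0.00194). With sh6 neither passed the test (adjusted p = 0.517 and 0.352). The lower level with sh6 than with sh1 was called for both (adjusted p = 0.0262 and 0.0225), but these calls were lost under quantile normalisation and without sh6 replicate 1, and also without sh6 replicate 2 or sh1 replicate 1 for COL4A3 and without sh1 replicate 2 or 3 for COL4A4, with adjusted p up to 0.155 and 0.111 over all alternatives.

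COL4A5, on the X chromosome, had 932, 936 and 1031 normalised counts in the sh6 libraries, 1129, 1155 and 1169.8 in the sh1 libraries and 672, 652 and 701 in the control libraries. It rose 1.43-fold with sh6 and 1.71-fold with sh1 (adjusted p = 4.3e-08 and 1.4e-11), with no overlap among the 3 groups. Its neighbour COL4A6 had 19.5, 18.2 and 14.9 normalised counts in the sh6 libraries, 44, 44.1 and 38.6 in the sh1 libraries and 23.8, 27.7 and 15.9 in the control libraries. COL4A6 rose 1.88-fold with sh1 (adjusted p = 0.00119), did not pass the test with sh6 (adjusted p = 0.296), and was 2.41-fold lower with sh6 than with sh1 (adjusted p = 5.7e-05). With sh6 the partners COL4A5 and COL4A6 thus had different calls, whereas with sh1 all 6 type IV genes were called higher. The levels of COL4A3, COL4A4 and COL4A6 were between 14.9 and 54.3 normalised counts in every library.

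The stretches that the RefSeq promoter windows of each pair have in common are shown because the partners of a pair moved together in some groups and not in others. Each is read on the plus strand of GRCh38.p14, 5′ to 3′, with matches to CCAAT or GGGCGG on either strand in capitals. A window holds 250 bases before a start site and 50 after it.
COL4A1 and COL4A2, chr13:110307108-110307333: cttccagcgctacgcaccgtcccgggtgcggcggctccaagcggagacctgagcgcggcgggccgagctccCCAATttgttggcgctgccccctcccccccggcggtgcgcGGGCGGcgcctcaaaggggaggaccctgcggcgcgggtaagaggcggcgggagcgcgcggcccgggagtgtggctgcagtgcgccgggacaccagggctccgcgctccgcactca
COL4A3 and COL4A4, chr2:227164374-227164455: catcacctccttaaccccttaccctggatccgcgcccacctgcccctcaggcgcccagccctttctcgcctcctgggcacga
COL4A5 and COL4A6, chrX:108439588-108439708: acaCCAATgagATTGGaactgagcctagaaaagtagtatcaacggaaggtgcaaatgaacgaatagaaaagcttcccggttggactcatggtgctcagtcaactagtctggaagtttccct
The annotated start sites of the pairs lie 127, 419 and 380 bases apart. The stretch of COL4A1 and COL4A2 holds 1 match to each motif, that of COL4A5 and COL4A6 holds 2 matches to CCAAT, and that of COL4A3 and COL4A4 holds neither. Over both strands, CCAAT stands in the windows of 39.7% of 27305 genes and in those of 9 of 35 tested members with a window, and GGGCGG in 48.3% of genes and in 24 of 35 members. A match is a description of these letters only.

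The laminin chains were mostly higher, and with sh1 8 of 9 tested chains were called higher and 1 lower, where 29% and 30% of all genes were. With sh6 5 were called higher and 3 lower, where 34.2% and 33.6% of all genes were, so that the share called lower was near that of all genes. LAMB1, the beta chain of most laminins of mesenchymal and vascular membranes, had 2662, 2926 and 2962 normalised counts in the sh6 libraries, 2898, 2831 and 3208 in the sh1 libraries and 1401, 1393 and 1648 in the control libraries. Every hairpin library lay above every control, and the hairpin groups overlapped. LAMB1 rose 1.92-fold with sh6 (log2 difference 0.92, SE 0.0635, adjusted p = 7.6e-14) and 2.01-fold with sh1 (log2 difference 0.98, SE 0.0635, adjusted p = 2.5e-14). LAMC1, the gamma chain that pairs with it, had 4046, 4288 and 4243 normalised counts in the sh6 libraries, 3180.2, 2977 and 3113 in the sh1 libraries and 2528, 2533 and 2922 in the control libraries. LAMC1 rose 1.58-fold with sh6 and 1.16-fold with sh1 (adjusted p = 2.1e-11 and 0.00183), and the 3 groups did not overlap. LAMA5, the alpha chain of laminins under most adult epithelia, averaged 6594 ± 495 with sh6, 5213 ± 354 with sh1 and 4425 ± 416 in controls (SD, n = 3 each), 1.49-fold and 1.18-fold higher (adjusted p = 3.2e-09 and 0.00211), although 1 sh1 library lay just under the highest control.

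LAMB3 and LAMA3 supply the beta and alpha chains of laminin-332, the laminin of skin and breast epithelium. LAMB3 had 1922, 1801 and 1854 normalised counts in the sh6 libraries, 1050.0, 1159 and 1207 in the sh1 libraries and 706, 662 and 672 in the control libraries. The 3 groups did not overlap, and LAMB3 rose 2.73-fold with sh6 (log2 difference 1.37, SE 0.0607, adjusted p = 1.4e-18) and 1.67-fold with sh1 (log2 difference 0.69, SE 0.0607, adjusted p = 3e-11). LAMA3 had 194, 166 and 221 normalised counts in the sh6 libraries, 166, 193 and 208 in the sh1 libraries and 103, 121 and 166 in the control libraries. It rose 1.49-fold and 1.45-fold (adjusted p = 0.0005 and 0.00112), with 1 sh6 library just under the highest control.

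The RefSeq promoter windows of LAMA3 and LAMB3 are shown because both genes rose with each hairpin and both windows hold the letters TGAGTCA, the binding motif of AP-1 factors. Each reads 5′ to 3′ on the strand of its gene in GRCh38.p14, with matches to TGAGTCA on either strand in capitals.
LAMA3, plus strand, chr18:23872770-23873069: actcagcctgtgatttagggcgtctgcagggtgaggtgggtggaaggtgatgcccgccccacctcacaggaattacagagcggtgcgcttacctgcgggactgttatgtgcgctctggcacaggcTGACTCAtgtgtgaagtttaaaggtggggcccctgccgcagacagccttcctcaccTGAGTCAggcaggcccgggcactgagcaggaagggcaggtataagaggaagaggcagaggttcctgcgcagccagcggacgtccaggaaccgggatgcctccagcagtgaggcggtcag
LAMB3, minus strand, chr1:209651325-209651624: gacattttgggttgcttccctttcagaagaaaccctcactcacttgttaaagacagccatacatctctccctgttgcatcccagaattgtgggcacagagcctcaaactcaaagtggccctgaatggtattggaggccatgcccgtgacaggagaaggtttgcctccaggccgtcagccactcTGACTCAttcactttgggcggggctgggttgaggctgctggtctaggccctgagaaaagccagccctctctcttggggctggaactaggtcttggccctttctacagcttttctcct
LAMA3 has 1 window with 2 matches, and LAMB3 has 3 windows of which 1 holds 1 match. The motif stands in a window of 6.05% of 27305 genes and of 3 of 35 tested members with a window. The third member with it is ITGA5, whose level did not pass the test with either hairpin (adjusted p = 0.0663 with sh6 and 0.192 with sh1). The motif of TEAD factors, GGAATG, stands in 16.7% of genes and in 5 of 35 members.

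LAMA4 and LAMB2 stood apart from the other laminin chains. LAMA4, an alpha chain known mainly from vessel walls, had 2562, 2577 and 2651 normalised counts in the sh6 libraries, 3385, 3415 and 3538 in the sh1 libraries and 4236, 4280.3 and 4559 in the control libraries. It fell 1.68-fold with sh6 and 1.26-fold with sh1 (adjusted p = 1.2e-13 and 1.9e-06), and the 3 groups did not overlap. LAMB2, a beta chain that can stand in the place of LAMB1, had 2661, 2382 and 2353 normalised counts in the sh6 libraries, 4264, 4290.2 and 4399.9 in the sh1 libraries and 3647, 3509 and 3849 in the control libraries. It fell 1.49-fold with sh6 (log2 difference -0.56, SE 0.0552, adjusted p = 2.3e-10) and rose 1.18-fold with sh1 (log2 difference 0.23, SE 0.0552, adjusted p = 0.00059). The difference between the hairpins was itself called, 1.75-fold lower with sh6 than with sh1 (adjusted p = 1.6e-13). LAMA2, the alpha chain of muscle laminin, averaged 45.2 ± 4.7 with sh6, 98.8 ± 11.9 with sh1 and 48.3 ± 7.89 in controls (SD, n = 3 each). It rose 2.05-fold with sh1 (adjusted p = 3.3e-06), did not pass the test with sh6 (adjusted p = 0.678), and was 2.19-fold lower with sh6 than with sh1 (adjusted p = 9.8e-07).

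**Figure D2:**
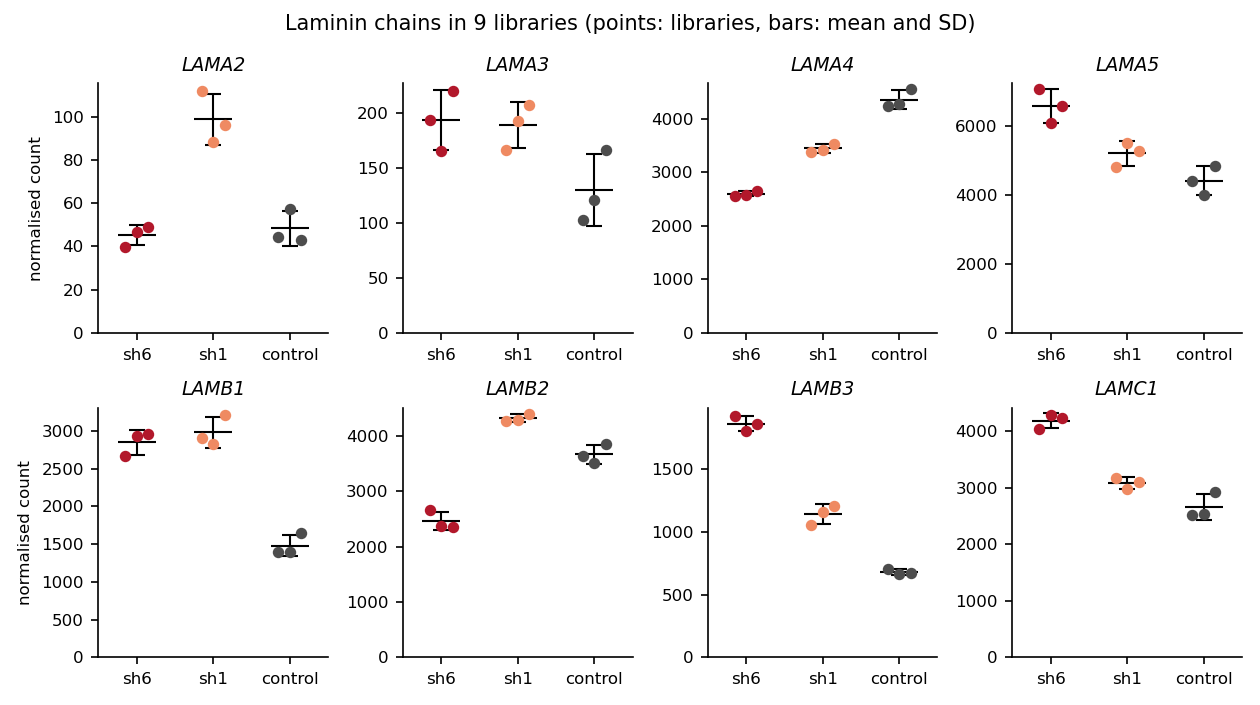
Normalised counts (y axes, from 0) of 8 laminin chains in the sh6, sh1 and control libraries, with a point per library and bars for mean and SD (n = 3). LAMB1 and LAMB3 lie above the controls in all 6 hairpin libraries, LAMA4 below them, and LAMB2 below with sh6 and above with sh1.

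COL18A1, a basement membrane collagen whose C-terminal fragment is endostatin, had 1732, 1452 and 1368 normalised counts in the sh6 libraries, 453, 574 and 467 in the sh1 libraries and 431, 424 and 458 in the control libraries. The sh6 libraries lay far above all others, while 1 sh1 library stood above the rest of its group and the sh1 and control ranges overlapped. COL18A1 rose 3.47-fold with sh6 (log2 difference 1.65, SE 0.0791, adjusted p = 9.5e-18), did not pass the test with sh1 (adjusted p = 0.0847), and stood 3.05-fold above its sh1 level with sh6 (adjusted p = 2.3e-16).

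Among the fibrillar collagens, COL5A2 had the larger rise with sh1. COL5A2, a chain of the type V collagen that starts fibrils of type I, had 93.8, 72.1 and 79.8 normalised counts in the sh6 libraries, 346, 313 and 331 in the sh1 libraries and 47.6, 47.2 and 53.7 in the control libraries. The 3 groups did not overlap. It rose 1.66-fold with sh6 and 6.67-fold with sh1 (adjusted p = 0.00013 and 6.7e-18), and was 4.03-fold lower with sh6 than with sh1 (adjusted p = 3.5e-15). COL5A1, which supplies the other chain of type V, was under the level filter, with means of 8.35 with sh6, 17.1 with sh1 and 4.16 in controls. COL24A1, a fibrillar chain described in bone, had 10.8, 11 and 9.58 normalised counts in the sh6 libraries, 33.8, 23.1 and 30.8 in the sh1 libraries and 107, 91.2 and 79.2 in the control libraries. All hairpin libraries lay below all controls, and it fell 8.84-fold with sh6 and 3.16-fold with sh1 (adjusted p = 2.9e-13 and 9e-09). Its sh6 mean of 10.4 lay under the filter level of 16.2, so COL24A1 was tested because of its higher groups. COL1A1, the main chain of type I collagen, averaged 332 ± 43.8, 304 ± 31.4 and 374 ± 58.4 in sh6, sh1 and control libraries (SD, n = 3 each), while its partner COL1A2 had no read in any hairpin library and a mean of 1.72 in controls. The 1.23-fold lower level of COL1A1 with sh1 (adjusted p = 0.0207) lost its call without sh1 replicate 1, sh1 replicate 3, control replicate 1 or control replicate 2, with adjusted p up to 0.165.

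The collagens that sit on fibrils, known as FACIT, showed no common direction. COL9A2, a chain of cartilage type IX collagen, had 95.9, 88.5 and 88.3 normalised counts in the sh6 libraries, 121, 144 and 135 in the sh1 libraries and 193, 219 and 223 in the control libraries. It fell 2.33-fold with sh6 and 1.59-fold with sh1 (adjusted p = 2.4e-10 and 9.5e-06), and the 3 groups did not overlap. COL9A3, of the same trimer, had 38.8, 42.9 and 33 normalised counts in the sh6 libraries, 12.3, 10 and 5.96 in the sh1 libraries and 27.9, 16.4 and 18.5 in the control libraries. It rose 1.82-fold with sh6 (adjusted p = 0.00333) and fell 2.22-fold with sh1 (adjusted p = 0.00525), although the call with sh1 was lost without control replicate 1 (adjusted p = 0.0502, range over all alternatives 0.00176 to 0.0502). COL9A1, the remaining chain, was at the floor in all 9 libraries. COL14A1 had 218, 195 and 227 normalised counts in the sh6 libraries, 172, 133 and 149.9 in the sh1 libraries and 97.2, 133 and 126 in the control libraries. It rose 1.8-fold with sh6 (adjusted p = 6.6e-07), and its 1.28-fold difference with sh1 (adjusted p = 0.021) lost its call without sh1 replicate 1 or control replicate 1, with adjusted p up to 0.176. COL12A1 averaged 5734 ± 609 with sh6, 4147 ± 261 with sh1 and 4624 ± 423 in controls (SD, n = 3 each), 1.24-fold higher with sh6 (adjusted p = 0.00017), and its difference with sh1 sat at the threshold (adjusted p = 0.0482) and lost its call under 10 of 19 alternatives, among them those without sh6 replicate 2, sh1 replicate 1, sh1 replicate 2 or control replicate 3, with adjusted p from 0.00835 to 0.731 over all alternatives.

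COL26A1, a collagen first described in reproductive tissue, had 88.4, 70.2 and 81.9 normalised counts in the sh6 libraries, 119, 131 and 115 in the sh1 libraries and 33.1, 25.7 and 35.2 in the control libraries. All hairpin libraries lay above all controls, and it rose 2.56-fold with sh6 and 3.88-fold with sh1 (adjusted p = 8.7e-08 and 1.5e-11). COL23A1, a transmembrane collagen, averaged 40.1 ± 6.56 with sh6, 23.2 ± 1.81 with sh1 and 13.3 ± 0.125 in controls (SD, n = 3 each), 3.01-fold and 1.74-fold higher (adjusted p = 3.2e-06 and 0.02), and the call with sh1 was lost without sh1 replicate 2 (adjusted p = 0.0622, range over all alternatives 0.00244 to 0.0622). COL16A1 and COL11A2 were called higher with sh1 (adjusted p = 0.00747 and 0.0212) but not with sh6, and leaving out sh1 replicate 3 ended the call of COL16A1, as sh1 replicate 1, sh1 replicate 2 or control replicate 1 did for COL11A2 (adjusted p up to 0.0935 and 0.231). COL21A1 passed the test in no comparison.

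**Figure D3:**
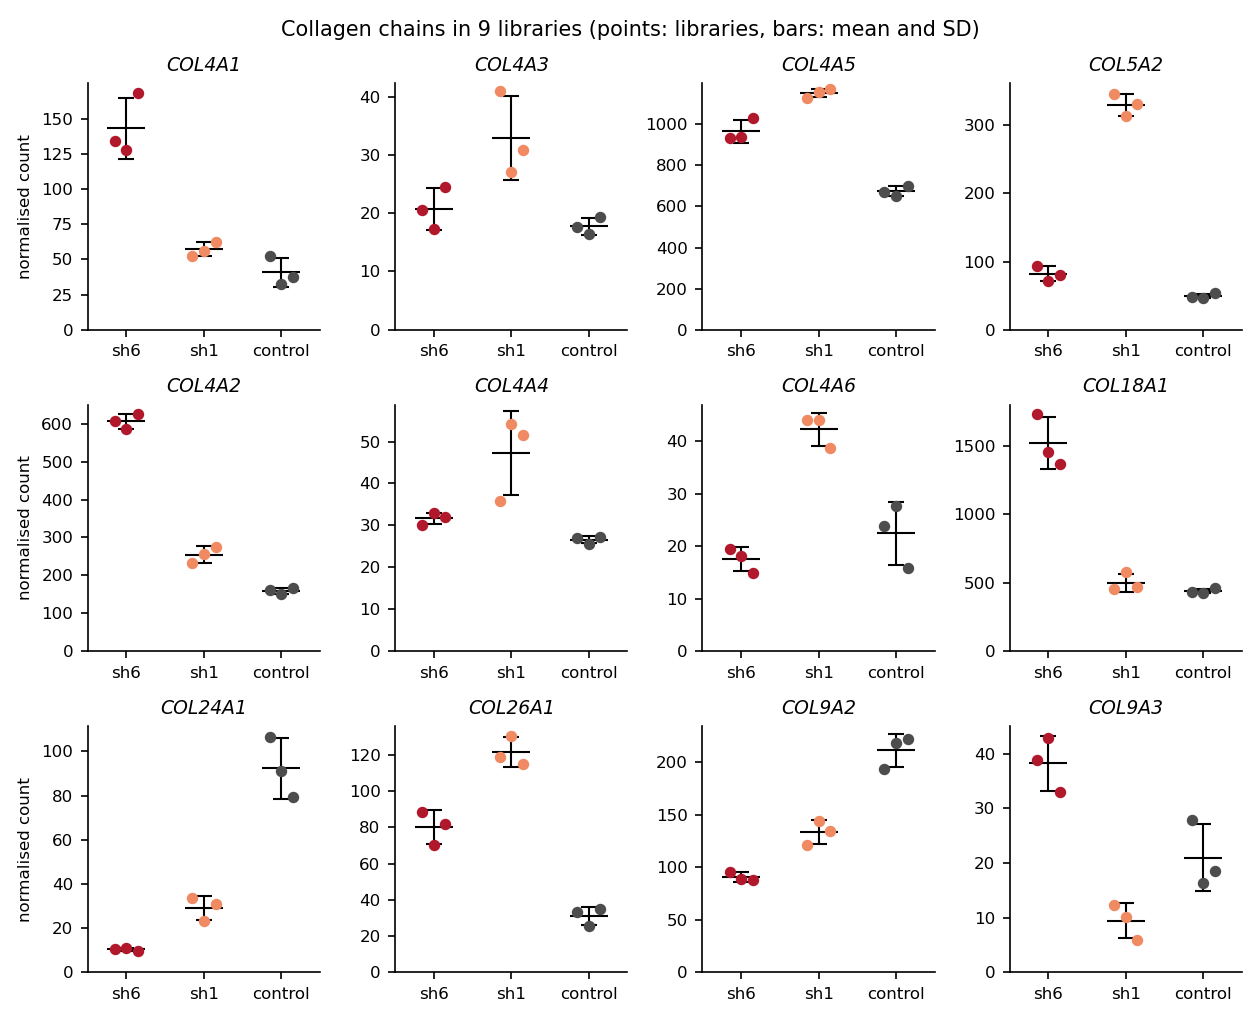
Normalised counts (y axes, from 0) of 12 collagen chains in the sh6, sh1 and control libraries, with a point per library and bars for mean and SD (n = 3). COL4A1, COL4A2 and COL18A1 are highest with sh6, COL4A6 and COL5A2 are highest with sh1, and COL24A1 and COL9A2 are lowest with sh6.

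Among the integrin beta subunits, ITGB1 and ITGB2 moved in opposite directions with the 2 hairpins, and ITGB4 and ITGB5 were higher with both. ITGB1, the partner of most alpha subunits and the common subunit of collagen and many laminin receptors, had 8296, 8878 and 9028 normalised counts in the sh6 libraries, 3524, 3428 and 3623 in the sh1 libraries and 7113, 7519.5 and 7082 in the control libraries. The 3 groups did not overlap. ITGB1 rose 1.21-fold with sh6 (log2 difference 0.27, SE 0.0517, adjusted p = 3.6e-05) and fell 2.05-fold with sh1 (log2 difference -1.02, SE 0.0517, adjusted p = 5.7e-17), a difference of 2.48-fold between sh6 and sh1 (adjusted p = 2.3e-19). ITGB6, the epithelial partner of alpha V that activates latent TGF-beta, had 1565, 1669 and 1639 normalised counts in the sh6 libraries, 3266, 3120.3 and 3065 in the sh1 libraries and 3327, 3384 and 3255 in the control libraries. It fell 2.05-fold with sh6 (log2 difference -1.005, SE 0.0525, adjusted p = 8.6e-17), did not pass the test with sh1 (adjusted p = 0.221), and was 1.94-fold lower with sh6 than with sh1 (adjusted p = 1.2e-15).

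ITGB4, the hemidesmosome subunit that pairs with alpha 6, averaged 3866 ± 281 with sh6, 3213 ± 194 with sh1 and 2631 ± 175 in controls (SD, n = 3 each). It rose 1.47-fold and 1.22-fold (adjusted p = 2.4e-09 and 0.00016), with every hairpin library above every control. ITGB5, another partner of alpha V, averaged 1906 ± 71.3, 1620.2 ± 49.3 and 1374 ± 145 in sh6, sh1 and control libraries (SD, n = 3 each), 1.39-fold and 1.18-fold higher with sh6 and sh1 (adjusted p = 1.5e-07 and 0.00203). ITGB8 was 1.17-fold higher with sh6 (adjusted p = 0.00996), a call lost without sh6 replicate 3 (adjusted p = 0.119, range over all alternatives 0.00266 to 0.119), and did not pass the test with sh1 (adjusted p = 0.499). With sh6, then, ITGB5 and ITGB8 were called higher and ITGB6 lower, and their shared partner ITGAV passed the test in no comparison, with means of 4876, 4678 and 4509.

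ITGB2, the subunit of leucocyte integrins, had 341, 316 and 312 normalised counts in the sh6 libraries, 134, 151 and 154 in the sh1 libraries and 218, 172 and 231 in the control libraries. It rose 1.56-fold with sh6 and fell 1.42-fold with sh1 (adjusted p = 3.5e-06 and 0.00044). Its classical partner ITGAL, the alpha subunit of LFA-1, had 67.1, 44.7 and 44.8 normalised counts in the sh6 libraries, 32.7, 25.8 and 33.8 in the sh1 libraries and 134, 114 and 126 in the control libraries. ITGAL fell 2.39-fold with sh6 and 4.05-fold with sh1 (adjusted p = 5.3e-08 and 3.2e-11), so with sh6 the partners went opposite ways. Of 8 leucocyte markers outside the integrins, MS4A1 and SPI1 were at 0 in every library and PTPRC averaged at most 3.53 in any group, and the summed level of the list was 169 to 188 with sh6, 277 to 313 with sh1 and 268 to 324 in controls, nearly all of it CD68 and CSF1R. CD68 averaged 134 with sh6, 77.6 with sh1 and 211 in controls and, like ITGAL, was called lower with both (adjusted p = 1.3e-05 and 2.4e-11). CSF1R averaged 44.8 with sh6, 212 with sh1 and 86.6 in controls, called lower with sh6 and higher with sh1 (adjusted p = 1.5e-05 and 1.6e-09). The part of these markers in the changes of ITGB2 and ITGAL was not tested. The antisense gene ITGB2-AS1 was listed at 26.4 to 52.8 with sh6, 11.4 to 28.9 with sh1 and 28.3 to 48.8 in controls, and because how strand was treated is not given, reads of the 2 genes cannot be told apart. Antisense partners of other members had at most 5.69 normalised counts in any library.

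Of the laminin-binding alpha subunits, ITGA3 and ITGA6 moved with different hairpins. ITGA3 had 1484, 1347 and 1338 normalised counts in the sh6 libraries, 2537, 2547 and 2609.5 in the sh1 libraries and 1369, 1371 and 1501 in the control libraries. It rose 1.81-fold with sh1 (log2 difference 0.83, SE 0.0573, adjusted p = 1.1e-13) and did not pass the test with sh6 (adjusted p = 0.724), and sh6 was 1.85-fold lower than sh1 (adjusted p = 6.6e-14). ITGA6 averaged 1887 ± 82.8 with sh6, 1274 ± 22.9 with sh1 and 1394 ± 63.1 in controls (SD, n = 3 each). It rose 1.35-fold with sh6 (adjusted p = 1.3e-07), did not pass the test with sh1 (adjusted p = 0.0603) and stood 1.48-fold above its sh1 level with sh6 (adjusted p = 1.3e-09). With sh1, then, ITGA3 was higher while its obligate partner ITGB1 was lower.

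Of the collagen-binding alpha subunits, ITGA1 had 36.7, 37.4 and 46.8 normalised counts in the sh6 libraries, 39, 42.2 and 43.7 in the sh1 libraries and 103, 109.7 and 91.5 in the control libraries. All hairpin libraries lay below all controls, and ITGA1 fell 2.52-fold with sh6 and 2.44-fold with sh1 (adjusted p = 2.6e-08 and 6.9e-08), with no difference called between the hairpins (adjusted p = 0.837). ITGA2, the collagen receptor subunit of epithelia, averaged 639 ± 22.1, 533 ± 29.4 and 492 ± 6.92 in sh6, sh1 and control libraries (SD, n = 3 each), and rose 1.3-fold with sh6 (adjusted p = 4.1e-05) without passing the test with sh1 (adjusted p = 0.191). ITGA2B, the platelet subunit, rose 2.13-fold with sh1 (adjusted p = 8.4e-06), at means of 40.3, 67.8 and 31.8. ITGA9 fell 1.48-fold with sh6 (adjusted p = 0.00376), and ITGA5, ITGAE and ITGAV passed the test in no comparison, nor did ITGB7.

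**Figure D4:**
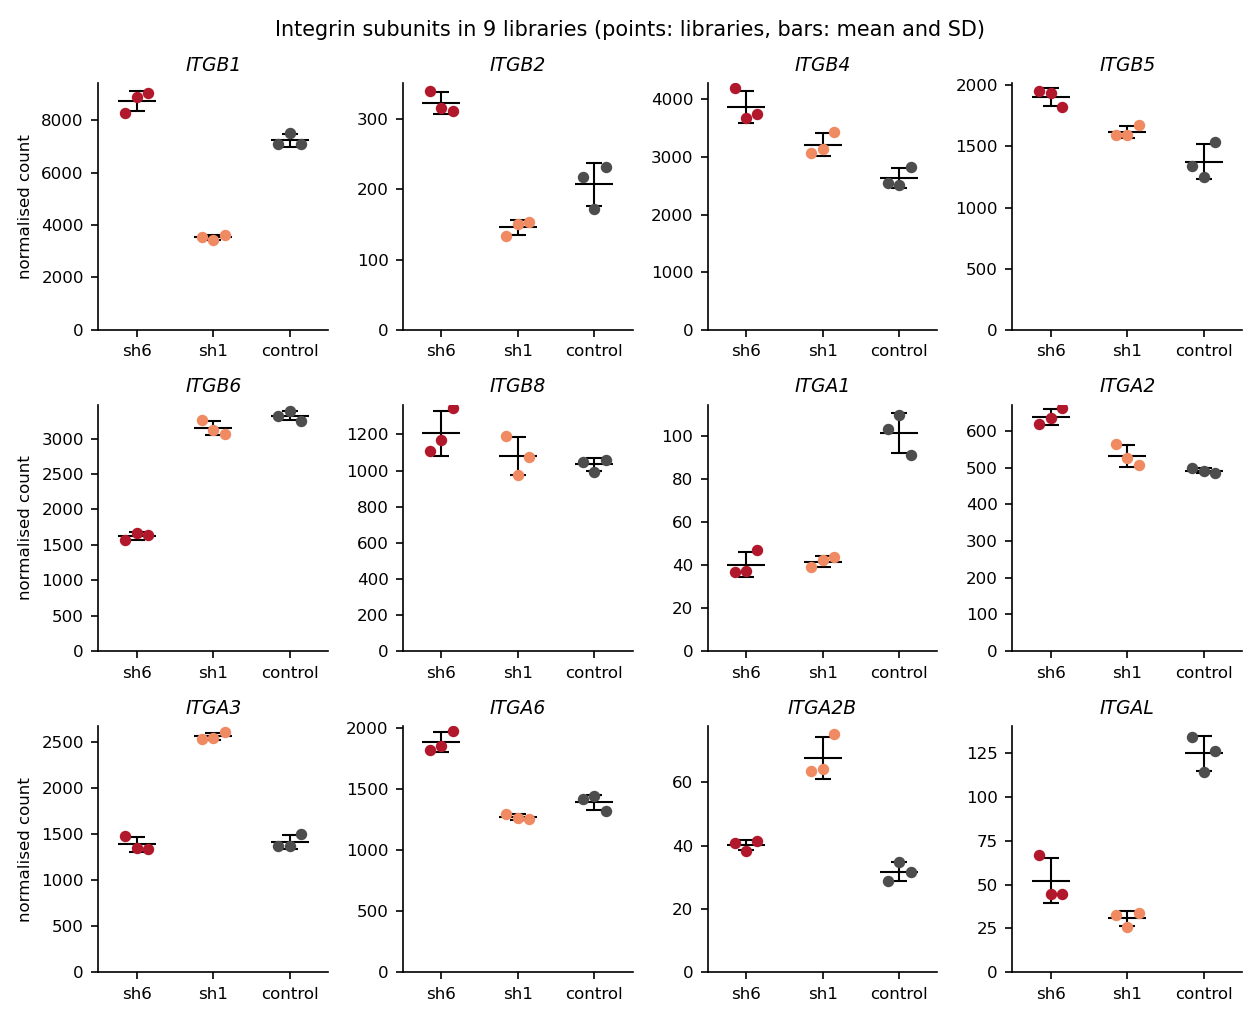
Normalised counts (y axes, from 0) of 12 integrin subunits in the sh6, sh1 and control libraries, with a point per library and bars for mean and SD (n = 3). ITGB1 is lowest with sh1, ITGB6 is lowest with sh6, and ITGA1 and ITGAL lie below the controls in all 6 hairpin libraries.

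Set directly against each other, sh6 and sh1 differed in 32 of 45 tested members, where 59.7% of all genes were called, with 17 higher and 15 lower with sh6, where 30.8% and 28.9% were. By at least 0.58 on the deposited scale, 7 were higher and 5 lower, against 5.26% and 6.45% of all genes. The higher ones were COL18A1, COL4A1, COL4A2, COL9A3, ITGB1, ITGB2 and LAMB3, and the lower ones COL5A2, ITGA3, ITGB6, LAMA2 and LAMB2. The sh6 libraries lay wholly above the sh1 libraries in 17 members and wholly below them in 16, where 33.8% and 31.6% of all genes did. The 6 members with calls in opposite directions against the control and a call between the hairpins, among them COL12A1, COL9A3, ITGB1, ITGB2 and LAMB2, were 13.3% of the tested members, where 6.4% of all genes did so.

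The members tested were 19 of 44 collagens, 9 of 12 laminins, 10 of 18 integrin alpha and 7 of 8 integrin beta genes. At the floor in all 9 libraries were COL6A5, COL9A1, COL11A1, COL19A1, COL20A1, COL22A1, COL25A1, ITGA8 and ITGAD. A count of 0 means that no read was recorded in a library, which does not show that the transcript was absent. Of the 28 members with reads below the filter, 10 had means of at most 1.95 in every group: COL1A2, COL2A1, COL5A3, COL6A1, COL6A2, COL6A6, COL8A1, ITGA11, LAMA1 and LAMB4. COL3A1, the chain of type III collagen, averaged 1.32, 0.335 and 2.26 in sh6, sh1 and control libraries. Means between 1.95 and 7.99 in the highest group were found for COL3A1, COL6A3, COL8A2, COL10A1, COL27A1, COL28A1, ITGA4, ITGA10, ITGAX and ITGB3. The other 8 were LAMC3, COL15A1, ITGAM, COL7A1, COL5A1, COL17A1, COL13A1 and ITGA7, with the highest group mean at 19.9 for ITGA7 with sh6.

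Of those 8, the epithelial attachment collagens and 2 further genes, chosen after their values were seen, are given without a test. COL17A1, the hemidesmosomal collagen, had 2.16, 4.56 and 0 normalised counts in the sh6 libraries, 26.7, 17.1 and 13.9 in the sh1 libraries and 7.24, 14.4 and 13.2 in the control libraries. COL7A1, the anchoring fibril collagen, had 9.71, 11.9 and 8.52 normalised counts in the sh6 libraries, 14.4, 19.1 and 13.9 in the sh1 libraries and 5.17, 8.2 and 4.4 in the control libraries. COL17A1 lay below all other libraries in the sh6 group, and COL7A1 lay above all controls in all 6 hairpin libraries. COL13A1, a transmembrane collagen, had 11.8, 20.9 and 14 normalised counts in the sh6 libraries, 19.6, 28.3 and 9.7 in the sh1 libraries and 5.09, 3.08 and 6.26 in the control libraries. LAMC3, a laminin gamma chain, had 11.9, 11.9 and 9.58 normalised counts in the sh6 libraries, 8.21, 1 and 5.96 in the sh1 libraries and 0, 2.05 and 3.52 in the control libraries. COL13A1 lay above all controls in all 6 hairpin libraries, and LAMC3 lay above all other libraries in the sh6 group.

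Genes that work with the members were followed through lists, whose counts stand beside 34.2% of all genes called higher and 33.6% lower with sh6, and 29% higher and 30% lower with sh1. The genes named from each list are its largest changes among those called with both hairpins, and are not typical of it. Of 23 tested genes, among 29 in the table, that fold, modify and cross-link collagen, 4 were called higher and 9 lower with sh6, and 7 higher and 8 lower with sh1, with median log2 differences of -0.0718 with sh6 and 0.0450 with sh1. P3H2, a prolyl 3-hydroxylase that acts on type IV collagen, averaged 414 ± 25.2 with sh6, 594 ± 13.1 with sh1 and 119 ± 19.4 in controls (SD, n = 3 each), and rose 3.47-fold and 4.97-fold (adjusted p = 6.8e-16 and 9.8e-19). PLOD3, which hydroxylates and glycosylates lysines of type IV collagen, rose 2.1-fold with sh6 and 1.23-fold with sh1 (adjusted p = 6.6e-15 and 0.00027). The cross-linking oxidase LOX averaged 857 ± 41.4, 404 ± 17.6 and 1586 ± 151 in sh6, sh1 and control libraries (SD, n = 3 each), 1.85-fold and 3.93-fold lower (adjusted p = 2.8e-12 and 2.1e-20).

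Of 10 tested genes of other basement membrane components, among 17 in the table, 5 were called higher and 3 lower with sh6, and 4 higher and 5 lower with sh1, with medians of 0.267 and -0.0676. HSPG2, the proteoglycan perlecan, averaged 1778 ± 199 with sh6, 543 ± 32.5 with sh1 and 443 ± 62.3 in controls (SD, n = 3 each). It rose 4.01-fold with sh6 (adjusted p = 6.3e-19), and its 1.23-fold difference with sh1 (adjusted p = 0.0051) lost its call without control replicate 2 (adjusted p = 0.0709, range over all alternatives 0.00043 to 0.0709). PXDN, the peroxidase that forms the sulfilimine cross-links of type IV collagen, rose 2.26-fold and 1.32-fold (adjusted p = 5.8e-18 and 3e-07), and NTN1, a laminin-related guidance factor, 1.64-fold and 1.56-fold (adjusted p = 1.8e-11 and 3e-10).

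Of 30 tested integrin adaptors and adhesion kinases, among 32 in the table, 17 were called higher and 11 lower with sh6, and 11 higher and 10 lower with sh1, with medians of 0.218 and -0.00323, the counts with sh1 being near the shares of all genes. The actin cross-linker FLNA rose 2.03-fold and 1.45-fold (adjusted p = 4.5e-14 and 6.1e-08) and the focal adhesion protein ZYX 2.26-fold and 1.49-fold (adjusted p = 4.7e-15 and 5.8e-08), whereas TNS1, which links integrin tails to actin, fell 1.78-fold and 1.91-fold (adjusted p = 6.6e-10 and 1.1e-10). Of 11 tested receptors of collagen and laminin that are not integrins, among 14 in the table, 3 were called higher and 6 lower with sh6, and 3 higher and 4 lower with sh1, with medians of -0.261 and -0.108. The collagen receptor kinase DDR1 averaged 4025 ± 315 with sh6, 9794 ± 108 with sh1 and 10890.4 ± 152 in controls (SD, n = 3 each). It fell 2.71-fold with sh6 (adjusted p = 2.1e-20), and its 1.11-fold lower level with sh1 (adjusted p = 0.0156) lost its call without sh1 replicate 1 or control replicate 1 and without the mean trend, and it changed sign under quantile normalisation, with adjusted p up to 0.901 over all alternatives. CD44, a hyaluronan receptor that also binds collagen, fell 2.32-fold and 1.34-fold (adjusted p = 4.6e-19 and 3.2e-08), and BCAM, a receptor of laminin alpha 5, rose 1.46-fold and 1.27-fold (adjusted p = 6.2e-08 and 9.7e-05).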

How the data were processed

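Polyadenylated RNA of 9 libraries was sequenced. Per the submitters' processing notes, which give no versions, cutadapt, STAR, Salmon, DESeq2 and the build hg19 were used. The deposited table holds log2-scale variance-stabilised values per gene, labelled by the authors as batch-corrected, and no source used here names a batch. A p-value and a log2 fold change per gene were also deposited by the authors, without a stated comparison, and were not used. Inverting the transformation from the floor of the table, 5.02, gave normalised counts, of which 76.6% to 80.4% of those between 0.5 and 20.5 reads lay within 0.05 of a whole read. Such values were not treated as raw counts.

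Genes with a mean at least 1 above the floor were fitted with limma 3.58.1 (lmFit, eBayes with a mean trend, R 4.3.3) in 1 model of 3 groups, two-sided, with Benjamini-Hochberg adjustment over 13165 genes and calls at an adjusted p under 0.05. Every adjusted p in the text is from this limma fit unless an alternative is named. An exact permutation test of 3 against 3 cannot give a p below 0.1. The procedure was tested on simulated data. All replicate pairs differed beyond sampling noise. Members were taken by symbol, and 27 symbols had been turned into dates, which could not hide a member. Values in every library were planned for 15 members with a mean at least 2 above the floor and a called difference of at least 0.58. Up to 3 genes were named per related list, those with the largest absolute mean of both log2 differences from the control. They had to be called with both hairpins and have a mean at least 2 above the floor. COL4A1, COL4A3, COL4A4, COL4A6, COL9A3, COL23A1, COL24A1, COL26A1, ITGA1, ITGA2B, ITGAL, LAMA2, LAMA3 and members described by means were added after their values were seen. Some items are not reported here by name and enter counts only. Members and lists were chosen with earlier results of these data known. Promoter windows are RefSeq's, in GRCh38.p14, and served for sequence only, matched by symbol. The alternatives comprised filters, variance priors, scales, scalings, samples in the fit, the replicate number as a block, thresholds and leaving out each library.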

Additional observations from a re-analysis of the deposited data

Results flagged for a closer look

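For 6 members the hairpins were called in opposite directions against the control, and the difference between the hairpins was itself called in limma. ITGB1 differed by 1.29 on the deposited log2 scale between sh6 and sh1, ITGB2 by 0.90, COL9A3 by 0.73 and COL12A1 by 0.46, all higher with sh6. LAMB2 differed by -0.79, lower with sh6. The sh1 mean of COL9A3, 9.44, lay under the filter level of 16.2, so COL9A3 was tested because of its higher groups. The 6 are among 45 tested members, 13.3%, where 6.4% of 13165 genes met the same condition. The direct differences of these 5 named members between sh6 and sh1 kept their call under all alternatives run, whereas a call against the control was lost under 10 of 19 alternatives for COL12A1 with sh1 and 1 of 18 for COL9A3 with sh1.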

How the results depend on the processing

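No scaling moved the median difference of all genes beyond 0.0312. Under the alternatives, 117 counts of members stayed within 1.5 times the count given and 9 did not. With a called difference of at least 0.58, 9 members were higher with sh6, 7 higher and 4 lower with sh1, and 7 higher and 5 lower with sh6 than with sh1. With a mean at least 2 above the floor, which tests fewer members, 5 were lower with sh6, 14 higher and 6 lower with sh1, and 8 lower with sh6 than with sh1. Leaving out each library gave 21 to 24 members higher and 8 to 10 lower with sh6, 21 to 24 higher and 8 to 11 lower with sh1, and 17 to 18 higher and 14 to 15 lower with sh6 than with sh1. Of 97 called differences of members, 12 lost their call under at least 1 alternative and 0 changed sign. DDR1 with sh1 changed sign under quantile normalisation, at 0.00823 (adjusted p = 0.901 in limma), and the cause was not tested.

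The deviations of same-numbered libraries of 2 groups had correlations of -0.128 to 0.176, and those of differently numbered libraries -0.183 to 0.168. Because the values are labelled as batch-corrected, these correlations cannot tell whether same-numbered libraries were prepared together. With the replicate number as a block, 22 members were higher and 9 lower with sh6, 24 higher and 10 lower with sh1, and 18 higher and 15 lower with sh6 than with sh1, and no named call was lost.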
